A study of Mus musculus with 6 samples.

Results

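The gamma crystallins were examined in RNA of whole mouse corneas taken 3 days after birth, measured on Affymetrix Mouse Gene 1.0 ST arrays. The genes were Cryga, Crygb, Crygc, Crygd, Crygs and Crygn, and their probe sets were those that the array annotation pairs with exactly 1 of these symbols. Each gene had 1 such probe set, so 6 probe sets of the 35557 in the deposited table were members. The rule for choosing between probe sets of a gene, the highest mean over all 6 arrays, therefore made no choice. The genes were taken up with their high levels on some of these arrays already known, so the contrast of the groups is given below as a description of them and supports nothing.

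There were 3 arrays of K14-DN-Clim corneas and 3 arrays of WT littermate corneas. K14-DN-Clim mice carry a transgene encoding dominant negative Clim, meant to block the CLIM cofactors that bind LIM-domain proteins. The keratin 14 promoter drives it in basal epithelial cells, so stroma, endothelium and lens fibres are not its intended site. Whether corneas of several pups were pooled for a replicate is not stated, and the p-values cover only how these samples vary, which may be technical variation. Expression of the transgene itself was not checked here. Over the tested probe sets, DN-Clim replicate 3 correlated at 0.928 and 0.900 with DN-Clim replicates 1 and 2 and at 0.949 to 0.962 with the WT arrays. It was thus less like its own group than like WT. DN-Clim replicates 1 and 2 correlated at 0.964 with each other. With the WT arrays replicate 1 correlated at 0.944 to 0.965 and replicate 2 at 0.918 to 0.957. Replicate 1 was thus as close to WT replicate 3, at 0.965, as to DN-Clim replicate 2. The results below are given array by array. Per the labels, tissue outside the cornea was dissected away and the RNA was tested by quantitative PCR for markers of neighbouring tissues.

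Gamma crystallins are small, densely packed globular proteins built from Greek key motifs. Together with the alpha and beta crystallins they fill the fibre cells of the lens and give it its refractive index, and mutations in several of them cause cataract in mice. The genes Cryga to Crygd lie side by side in a cluster that also holds Cryge, with Crygf further along the same chromosome, while Crygs and Crygn each lie alone on other chromosomes. Crygn has a gene structure between those of the beta and gamma families. The proteins called corneal crystallins, such as the aldehyde dehydrogenase Aldh3a1, are unrelated to them.

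The stretches of 100 bases before the transcript start are shown so that the 4 neighbouring genes of the cluster can be set beside Crygs and Crygn, whose profiles over the arrays stood further off. They are RefSeq sequences on build GRCm38.p6, all from the minus strand, written 5′ to 3′ and ending at the base before the start. Capitals mark TATATA or TATAAA, and the run TTTGTG or CTTTTGTG that cluster members share.
Cryga: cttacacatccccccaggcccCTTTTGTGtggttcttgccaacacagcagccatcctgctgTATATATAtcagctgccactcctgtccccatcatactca
Crygb: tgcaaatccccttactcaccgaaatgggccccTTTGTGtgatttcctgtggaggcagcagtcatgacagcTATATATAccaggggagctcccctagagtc
Crygc: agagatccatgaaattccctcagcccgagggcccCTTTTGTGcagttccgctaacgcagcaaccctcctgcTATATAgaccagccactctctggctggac
Crygd: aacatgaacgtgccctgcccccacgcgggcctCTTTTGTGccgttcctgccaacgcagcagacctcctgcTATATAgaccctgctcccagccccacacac
Crygs: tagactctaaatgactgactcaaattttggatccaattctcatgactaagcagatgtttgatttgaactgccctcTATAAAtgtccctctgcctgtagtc
Crygn: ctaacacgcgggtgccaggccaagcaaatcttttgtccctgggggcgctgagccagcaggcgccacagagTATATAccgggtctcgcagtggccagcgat
The stretch of Cryga is chr1:65103364-65103463, that of Crygb chr1:65082291-65082390, that of Crygc chr1:65073533-65073632 and that of Crygd chr1:65063441-65063540. The stretch of Crygs is chr16:22811411-22811510 and that of Crygn chr5:24757849-24757948.

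The array levels are deposited intensities on a linear scale, or log2(intensity + 16) where a log2 level is named, and log2 differences are DN-Clim minus WT. Levels are compared between arrays for 1 probe set at a time and not between genes. In whole tissue, a change in the number of cells of a type and a change in RNA per cell cannot be told apart.

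The DN-Clim group held both the highest and, for 5 of the 6 genes, the lowest levels of the study. On DN-Clim replicates 1 and 2 every gamma crystallin lay far above all WT arrays, and on DN-Clim replicate 3 Cryga, Crygb, Crygc, Crygd and Crygs lay below all WT arrays. Crygn, alone of the 6, was on DN-Clim replicate 3 about where it was in WT, at levels that were not tested against background. WT replicate 3 was the highest WT array for the same 5 genes.

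Cryga read 22209, 27818 and 213 intensity units in DN-Clim replicates 1, 2 and 3, against 937, 1018 and 1907 in WT replicates 1, 2 and 3. This gene stands at the end of the cluster opposite to Cryge. Relative to the WT mean intensity, Cryga was 17.3-fold and 21.6-fold on DN-Clim replicates 1 and 2 and 0.166-fold on replicate 3. Crygb, mutated in a dominant nuclear cataract of the mouse, read 19465, 22446 and 179 units in DN-Clim, against 575, 648 and 1979 in WT. Its ratios to the WT mean were 18.2, 21.0 and 0.167 on the DN-Clim arrays. The highest and lowest WT arrays of Crygb thus differed clearly as well, with WT replicate 3 above the other two by 1.67 on the log2 scale.

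Crygc read 9165, 10429 and 116 units in DN-Clim replicates 1, 2 and 3, against 480, 271 and 673 in WT. It was the one cluster gene whose lowest WT array was replicate 2. Crygd, of which the human counterpart is mutated in several inherited cataracts, read 9494, 10992 and 62.9 units in DN-Clim, against 321, 465 and 1199 in WT. Its DN-Clim replicate 3 differed from the lowest WT array by -2.10 in log2 level. Crygc and Crygd on that array were below 130.0 units, the 25th percentile of all deposited intensities, and whether they stood above background there was not tested, so the sizes of their low values are uncertain. Cryga, Crygb and Crygs were above 130.0 units there but below that array's median intensity of 280.9, and the same limit holds for their low ratios. Over the 4 cluster genes, DN-Clim replicate 3 differed from the WT mean by between -2.88 and -1.81 in log2 level.

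Crygs, the gamma crystallin that is still made in the adult lens, read 15883, 17576 and 162 units in DN-Clim replicates 1, 2 and 3, against 316, 329 and 462 in WT. On the intensity scale it was 43.1-fold and 47.7-fold over the WT mean on DN-Clim replicates 1 and 2, the highest ratios among the 6 genes, and 0.438-fold on replicate 3. Its WT arrays lay closer together than those of any cluster gene, with an SD of 0.29 in log2 level (n = 3) against SDs from 0.55 to 0.97 for the cluster genes. Crygn read 3734, 2885 and 215 units in DN-Clim, against 224, 196 and 198 in WT. Its WT arrays had an SD of 0.10 in log2 level (n = 3), and DN-Clim replicate 3 differed from their mean by 0.06. On each of these arrays Crygn was below the array's own median intensity, which ran from 260.5 to 280.9 units. Whether it stood above background there was not tested, so whether it could read lower on DN-Clim replicate 3 is uncertain. Crygn was also the only one of the 6 with a higher level on DN-Clim replicate 1 than on replicate 2, by 0.37 in log2 level, where the other 5 differed by between -0.32 and -0.15.

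**Figure D1:**
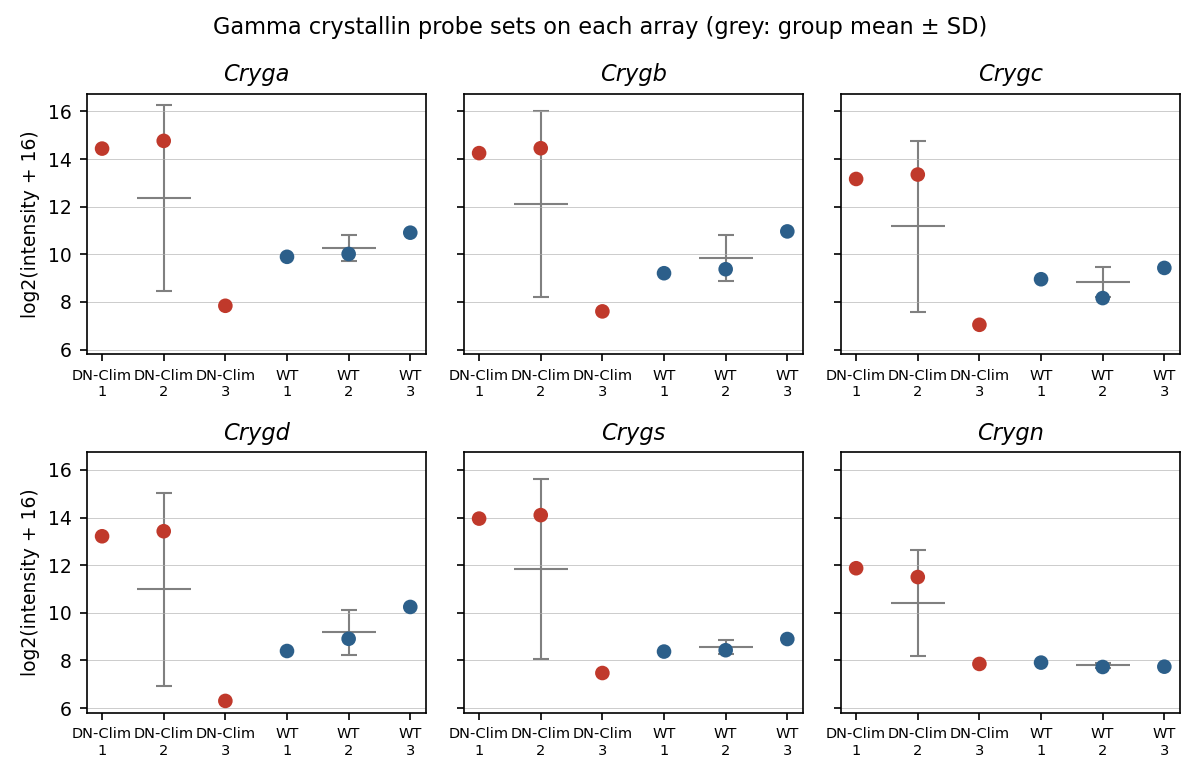
Log2(intensity + 16) of the 6 gamma crystallin probe sets (vertical axis) on each array, with DN-Clim arrays in red and WT arrays in blue. Grey bars give the group mean ± SD (n = 3). DN-Clim replicates 1 and 2 lie above all WT arrays in each panel, and replicate 3 lies below them in each panel but that of Crygn.

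As group means of log2 levels, Cryga was 12.35 ± 3.91 in DN-Clim and 10.27 ± 0.55 in WT (SD, n = 3 each), and Crygs was 11.84 ± 3.79 in DN-Clim and 8.57 ± 0.29 in WT (SD, n = 3 each). The log2 differences of the 6 genes ran from 1.80 for Crygd to 3.28 for Crygs, with a median of 2.30, against a median of -0.04 over all 23410 probe sets tested. The difference was below the SD of the DN-Clim group for every gene but Crygn, which was 10.41 ± 2.22 in DN-Clim and 7.79 ± 0.10 in WT (SD, n = 3 each). In limma's fit over all 23410 probe sets, 0 of the 6 genes passed the Benjamini-Hochberg adjusted threshold of 0.05, where 0.0128% of all probe sets did. Their adjusted p-values ran from 0.721 for Crygn to 0.999. At an unadjusted p under 0.05 there were 2 of the 6, Crygs and Crygn, both higher in DN-Clim, against 5.94% of all probe sets in either direction and 1.45% higher. The groups overlapped for all 6 genes, where 10.1% of probe sets had groups that did not.

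DN-Clim replicate 3 decided these values. Without it the log2 differences were 5.46 for Crygs (SE 0.199), 4.50 for Crygb (SE 0.466), 4.41 for Crygc (SE 0.328), 4.33 for Cryga (SE 0.30), 4.14 for Crygd (SE 0.46) and 3.90 for Crygn (SE 0.174). In that fit 6 of the 6 genes passed, beside 2.06% of all probe sets in either direction and 0.547% higher, but the array left out was picked for its values and nothing is read from the count. With DN-Clim replicate 3 alone against WT the median over the 6 genes was -2.03. Dropping DN-Clim replicate 1 gave a median of 1.26 and dropping replicate 2 gave 1.17, and 0 of the 6 passed in either.

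The same pattern was rare in its size but not in its order. DN-Clim replicates 1 and 2 both lay above all WT arrays for all 6 genes and for 13.8% of the tested probe sets. In addition DN-Clim replicate 3 lay below all WT arrays for 5 of the 6 genes and for 5.65% of probe sets, and with WT replicate 3 highest in WT as well the counts were 5 of the 6 and 3.21%. Both arrays exceeded the WT mean by over 3 log2 units for all 6 genes, and for 14 of the 23410 probe sets (0.0598%). Besides the 6 these were 7 probe sets of other crystallins, 1 of them shared by Cryge and Crygf. The last was 1 of the 2 probe sets of Pou3f2, a POU transcription factor of neural cells. The members were picked on this pattern, so these shares describe it only.

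**Figure D2:**
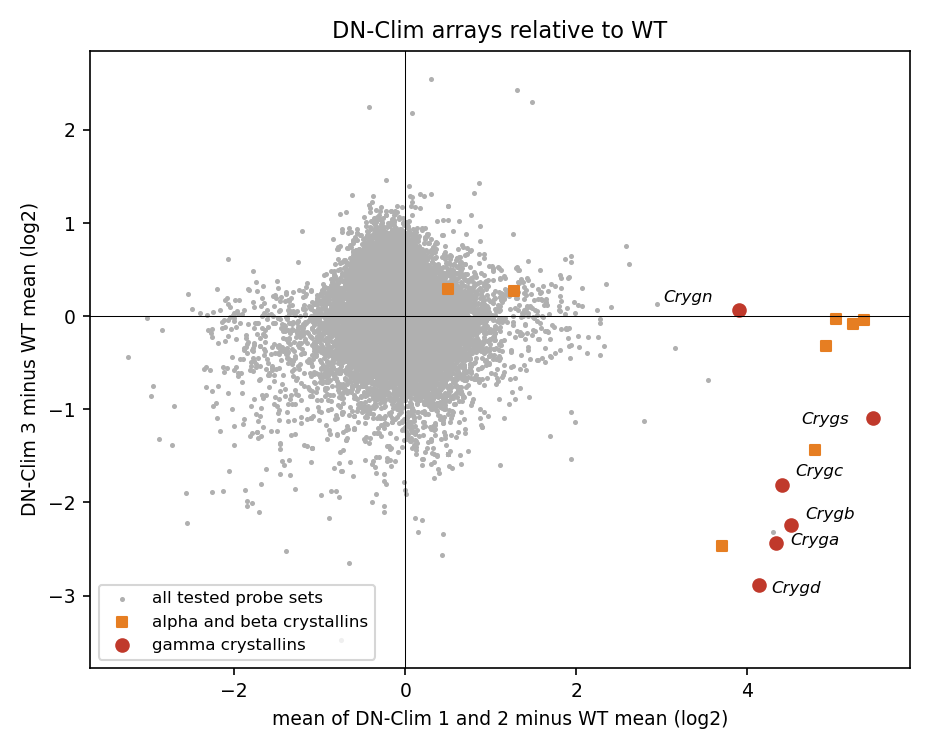
Each point is a probe set, with the mean log2 level of DN-Clim replicates 1 and 2 minus the WT mean on the horizontal axis and DN-Clim replicate 3 minus the WT mean on the vertical axis. Gamma crystallins are red, alpha and beta crystallins orange and all 23410 tested probe sets grey. The 4 cluster genes lie at 4.14 to 4.50 on the horizontal and -2.88 to -1.81 on the vertical axis, and Crygn at 3.90 and 0.06.

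In log2 level relative to the WT mean, the 6 genes were widest apart on DN-Clim replicate 3, from -2.88 to 0.06. They ran from 4.03 to 5.39 on DN-Clim replicate 1 and from 3.71 to 5.53 on DN-Clim replicate 2, with Crygs the highest on both, and from -0.05 to 1.11 on WT replicate 3. Likeness was measured as the root mean square difference between log2 profiles over the 6 arrays, each centred on its WT mean. Cryga and Crygb were the closest pair at 0.27 log2 units, and each cluster gene had another cluster gene within 0.37. The nearest member to Crygs was Crygc at 0.73, and the nearest to Crygn was Crygc at 0.91. Crygc and Crygd, in the same cluster, were 0.65 apart. For 3 of the 6 a crystallin of another family was nearer than any other member, namely Cryba4 for Crygc at 0.31 and for Crygs at 0.44, and Cryaa for Crygn at 0.67. WT replicate 3 exceeded the mean of WT replicates 1 and 2 by 0.87 to 1.67 in log2 level for the cluster genes and by 0.50 for Crygs, and differed from it by -0.08 for Crygn. All 6 values share the same arrays, and whether a probe of one cluster gene also binds transcripts of another was not tested.

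The remaining genes of the family were read from a probe set of Crygf and from one that the annotation assigns to Cryge and Crygf together. The shared probe set read 9906, 11812 and 94.4 units in DN-Clim replicates 1, 2 and 3, against 317, 443 and 1079 in WT, so that it too was highest on DN-Clim replicates 1 and 2 and lowest on replicate 3. Its value on replicate 3 was below 130.0 units and was not tested against background, so its size is uncertain. The probe set of Crygf alone read 2338, 9674 and 407 units in DN-Clim, against 454, 449 and 684 in WT. Its DN-Clim replicates 1 and 2 differed by -2.04 in log2 level, a wider gap than for any of the 6 members, and its DN-Clim replicate 3 was lower than its lowest WT array by a log2 difference of -0.14. Neither passed in the fit of all 6 arrays (limma adjusted p = 0.843 for Crygf and 0.999 for the shared probe set).

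Among genes outside the 6, the profile nearest to their mean was that of Cryba4, a beta crystallin, at 0.27 log2 units. It was followed by Cryba1 at 0.58, Cryaa at 0.66, Crybb3 at 0.79, Cryba2 at 0.85 and Crybb1 at 0.88. After these came Pou3f2 at 0.99, Crygf at 1.10, the Y-linked translation factor gene Eif2s3y at 1.28 and Ccdc175 at 1.37. Pou3f2 was read from the nearer of its 2 probe sets. Eif2s3y was below 130.0 units on all arrays but DN-Clim replicate 2, so its distance is uncertain. The median distance over probe sets with 1 symbol was 2.78, and a profile with no differences at all would lie at 2.69. Cryba1 and Cryba4 were the alpha or beta crystallins that shared the low level on DN-Clim replicate 3, at -2.47 and -1.44 from the WT mean in log2 level. For Cryaa, Crybb1, Crybb3 and Cryba2 that value lay between -0.33 and -0.03. Cryba1 and Cryba4 were below that array's median intensity of 280.9 units there, and whether they stood above background was not tested, so their sizes are uncertain.

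Of the 8 alpha and beta crystallins listed for comparison, 0 passed in limma's fit of all 6 arrays, where 0.0128% of all probe sets did. An unadjusted p under 0.05 was found for 6 of the 8, against 5.94% of all probe sets. All 8 lay above all WT arrays on DN-Clim replicates 1 and 2, against 13.8% of all probe sets. The list's median log2 level relative to the WT mean was 4.95, 4.76 and -0.06 on DN-Clim replicates 1, 2 and 3, against -0.12, -0.12 and 0.35 on WT replicates 1, 2 and 3. For the 6 gamma crystallins the same medians were 4.24, 4.50 and -2.03 in DN-Clim, against -0.29, -0.27 and 0.61 in WT. Over all tested probe sets they were -0.07, -0.16 and 0.06 in DN-Clim, and from -0.02 to 0.02 in WT. Both lists were high on the same pair of DN-Clim arrays, and the gamma list alone had a low median on DN-Clim replicate 3, a difference that was not tested. The log2 differences of the groups were 3.56 for Crybb1, 3.46 for Cryba2, 3.34 for Crybb3 and 3.17 for the chaperone Cryaa. The list's median difference, 2.94 with all arrays, was 4.85 without DN-Clim replicate 3 and 1.94 without DN-Clim replicate 1. The differences were 0.94 for Cryab, a small heat shock protein also made outside the lens, and 0.43 for Crybb2, a beta crystallin that builds up after birth.

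Other genes of the fibre cell had smaller differences as a list, with a median log2 difference of 0.44. Several of them were dim, and that median was 0.82 when dim probe sets were left out. The list held 11 measured genes of lens fibres other than crystallins, among them Mip, Lim2, Gja3, Bfsp1 and Bfsp2 for the membrane, junctions and beaded filaments, and also genes such as Dnase2b, a nuclease that clears the fibre nuclei. Of the 11, 0 passed in the same fit, and 7 lay above all WT arrays on DN-Clim replicates 1 and 2, as did 13.8% of all probe sets. The medians of that list were 0.61, 0.54 and 0.31 on the DN-Clim arrays, against -0.07, 0.09 and -0.01 in WT, and its summed intensity ran from 2991 to 6564 in DN-Clim and from 2485 to 2602 in WT. Bfsp1, a beaded filament protein, had log2 levels of 11.25, 11.25 and 9.06 in DN-Clim, against 9.35, 8.97 and 8.69 in WT. Lim2, a fibre membrane protein, had 8.30, 10.09 and 7.85 in DN-Clim, against 7.18, 7.35 and 7.26 in WT. It was higher on all 3 DN-Clim arrays than on any WT array, unlike the gamma crystallins. The same held for Grifin, Tdrd7, Dnase2b and Lctl of this list, and for the crystallins Cryab and Crybb2. Mip, the lens aquaporin, had 7.76, 8.43 and 7.50 in DN-Clim, against 7.95, 7.69 and 8.03 in WT, so that its groups overlapped. Mip was below the array's own median intensity on every array but DN-Clim replicate 2. Lim2 and Bfsp2 were below it on DN-Clim replicate 3 and on every WT array. Dnase2b, Lctl, Lgsn and Birc7, also in the list, were below it on every array. Whether these genes stood above background was not tested, so the sizes of their differences are uncertain.

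Transcription factors and other regulators known to act on lens crystallin genes were listed as 16 genes, all measured. None of the 16 passed in limma's fit, 1 had an unadjusted p under 0.05, against 5.94% of all probe sets, and 5 lay above all WT arrays on DN-Clim replicates 1 and 2, against 13.8%. Their median log2 level relative to the WT mean was 0.06, -0.14 and 0.08 in DN-Clim replicates 1, 2 and 3. Prox1, a homeodomain factor needed for fibre elongation, had log2 levels of 9.90, 10.30 and 7.98 in DN-Clim, against 8.27, 8.21 and 8.94 in WT. This is the order of the gamma crystallins other than Crygn, with WT replicate 3 the highest in WT and DN-Clim replicate 3 the lowest of all. Sox2, a partner of PAX6 in the early lens and also a factor of neural and epithelial progenitors, had 12.54, 8.58 and 8.51 in DN-Clim, against 7.75, 7.77 and 8.32 in WT. It was far higher on DN-Clim replicate 1 than on any other array, while the 6 gamma crystallins were high on replicates 1 and 2. On DN-Clim replicates 2 and 3 Sox2 also lay above all WT arrays, by less. Maf, which binds crystallin promoters, had 8.66, 8.44 and 8.83 in DN-Clim, against 8.44, 8.76 and 8.58 in WT, and the log2 difference of Pitx3, another lens factor, was 0.05 as well.

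**Figure D3:**
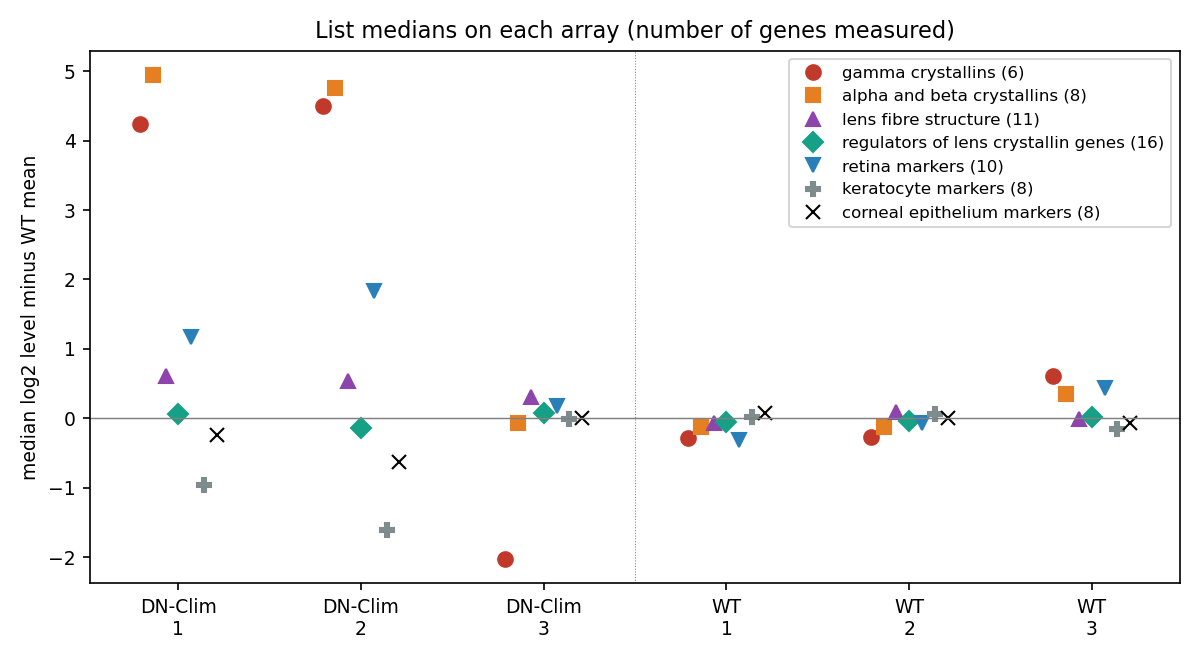
Median over the genes of a list of the log2 level minus the WT mean (vertical axis) on each array, with the number of genes measured in brackets. Alpha, beta and gamma crystallins stand at 4.24 to 4.95 on DN-Clim replicates 1 and 2, and the gamma crystallins at -2.03 on replicate 3.

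Markers of other tissues of the eye also differed between these arrays, none past the threshold. Of 10 measured retina markers 0 passed, and 5 had an unadjusted p under 0.05, against 5.94% of all probe sets. On DN-Clim replicates 1 and 2, 8 of the 10 lay above all WT arrays, against 13.8% of all probe sets. The list stood at 1.17, 1.83 and 0.18 in its medians for the DN-Clim arrays, against -0.31, -0.07 and 0.44 in WT, and its summed intensity ran from 4446 to 16890 in DN-Clim and from 2598 to 7173 in WT. The 6 pigment cell markers had medians of 0.62, 0.61 and -1.35 in DN-Clim, against -0.33, 0.02 and 0.31 in WT, with summed intensities from 2292 to 10124 in DN-Clim and from 5100 to 8046 in WT. Like the cluster genes, the pigment list was lowest on DN-Clim replicate 3 and highest in WT on replicate 3. The 8 keratocyte markers had medians of -0.96, -1.60 and -0.01 in DN-Clim, against 0.02, 0.06 and -0.15 in WT, and summed intensities from 15251 to 36650 in DN-Clim and from 37137 to 41338 in WT. Of these 8, 6 had an unadjusted p under 0.05, against 5.94% of all probe sets. Ptgds alone among them had a log2 difference above 0, at 0.73. The 8 corneal epithelium markers had medians of -0.25, -0.64 and 0.00 in DN-Clim, and none had a log2 difference above 0. In the fit of all 6 arrays 0 of the 8 passed, and 3 had an unadjusted p under 0.05. Without DN-Clim replicate 3, 2 passed, Aldh3a1 and Krt14, both lower in DN-Clim. In that fit 4 keratocyte markers passed lower in DN-Clim and 1 higher, and 3 retina markers passed higher. Over all probe sets 2.06% passed in either direction. The array left out was picked for its values, so nothing is read from these counts. Aldh3a1 read 307, 342 and 1008 intensity units in DN-Clim, against 1036, 1051 and 995 in WT. It was thus low on the arrays where the gamma crystallins were high. The log2 differences were -1.09 for Aldh3a1, -0.71 for the claudin Cldn7, -0.63 for the basal keratin Krt14 and -0.03 for the defining keratin Krt12. None of these markers was at 0 on any array, and their part in the crystallin values was not tested.

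The genes next to the gamma crystallins on the chromosomes had smaller differences. These were the 3 nearest protein-coding genes with a probe set on each side of the cluster, of Crygs and of Crygn, 18 in all. The mean of their log2 levels on DN-Clim replicates 1 and 2 differed from the WT mean by between -0.90 and 1.60, with a median of 0.00. None of the 18 passed in limma's fit of all 6 arrays, 1 had an unadjusted p under 0.05, and 3 lay above all WT arrays on DN-Clim replicates 1 and 2, both near the shares of 5.94% and 13.8% over all probe sets. The 3 were Map2, a neuronal microtubule protein beyond Crygf, with differences of 1.63 and 1.58 from the WT mean on the pair, Etv5, an ETS factor beside Crygs, with 0.94 and 0.72, and Plekhm3, with 0.33 and 0.83. Etv5 was read from the brighter of its 2 probe sets, and the other is not given here. Idh1, isocitrate dehydrogenase, and 3 other genes that lie between Cryga and Crygf were added after the values were seen. Their means over the pair differed from WT by between -0.31 and 0.23 in log2 level.

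**Figure D4:**
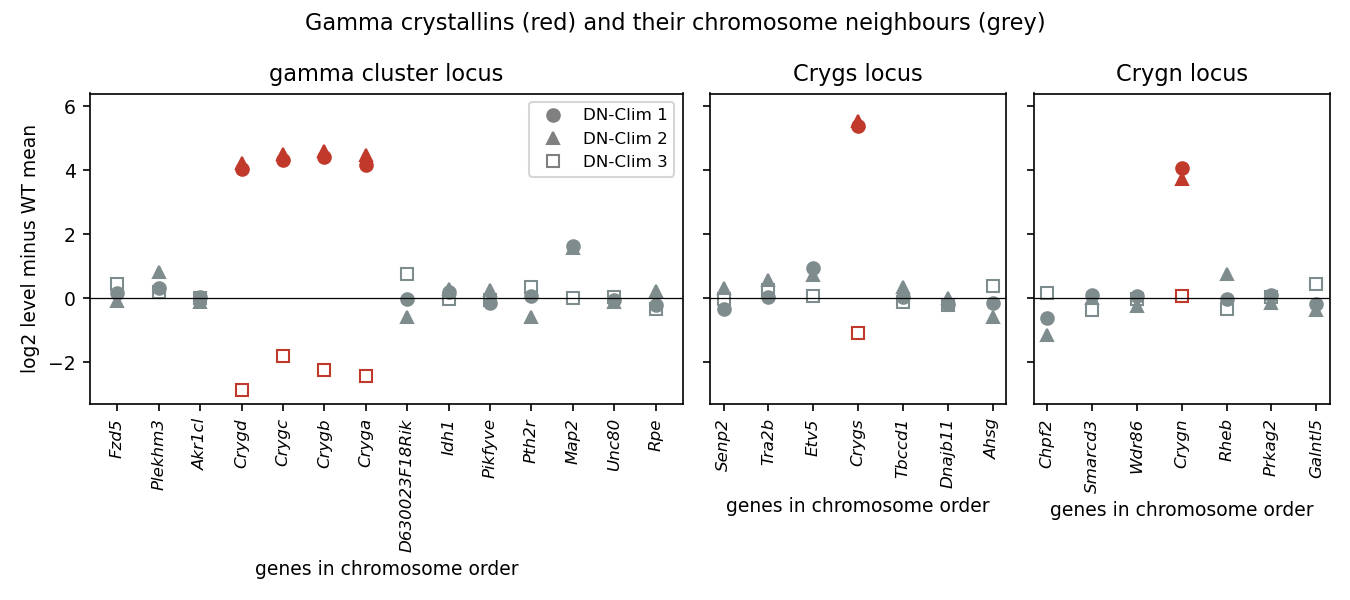
Log2 level of each DN-Clim array minus the WT mean (vertical axis) for genes in chromosome order (horizontal axis, not to scale) at the gamma cluster, Crygs and Crygn. Gamma crystallins are red and other protein-coding genes grey, with circles, triangles and open squares for DN-Clim replicates 1, 2 and 3. The red circles and triangles lie between 3.71 and 5.53, and those of the 18 planned neighbours and the 4 genes between Cryga and Crygf at or below 1.63.

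The upstream sequences printed above were alike within the cluster. Over the 100 bases, the 6 pairs of cluster genes were identical at 58.7% to 70.1% of aligned columns, and the 9 pairs with Crygs or Crygn at 46.6% to 56.4%. Crygc and Crygd were the most alike at 70.1%, and Crygs and Crygn the least. In the 250 bases before the start, the longest runs of bases common to all 4 cluster genes were TATATA and TTTGTG. The run TATATA began 39 bases before the start in Cryga, 30 in Crygb, 29 in Crygc and 30 in Crygd, and also 30 in Crygn. It reads the same on both strands, repeats with overlap in Cryga and Crygb, and was in 5.25% of the 32851 upstream windows of that length in the table. Crygs held TATAAA instead, beginning 25 bases before the start, a motif in 12.4% of windows on either strand.

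TTTGTG began 77, 68, 64 and 66 bases before the start in Cryga, Crygb, Crygc and Crygd, and was in 15.6% of windows on either strand. In Cryga, Crygc and Crygd it was part of CTTTTGTG, which was in 1.21% of windows, and in Crygb it overlapped CTTTGT, a core of Sox sites. Those 3 genes also shared TCCTGCT, found in 7.38% of windows. These runs were chosen from the sequences themselves. Of the other motifs searched, TGCTGA, a core of Maf factor sites, was in 4 of the 6 genes (Cryga, Crygc, Crygs and Crygn) and in 16.1% of windows. The Sox cores CTTTGT (Cryga and Crygb) and ACAATG (Crygd and Crygs) were in 16.5% and 10.7% of windows. A match says only that these letters stand in the window.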

How the data were processed

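Per the labels, RNA of 6 whole-cornea samples was amplified and biotin-labelled with NuGEN kits. The deposited values are probe set intensities, made with Affymetrix Expression Console 1.1 and PLIER per the submitters' processing notes. How background, normalization and any offset were handled is not given in the sources used here. Array medians ran from 231 to 281, and precision is limited by the number of arrays.

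Analysis used log2(intensity + 16) with no further normalization. The platform annotation paired 23410 of 35557 probe sets with a gene, 21789 of them with 1 symbol and 1621 with several. No gene was named from the latter except Cryge with Crygf, and the other 12147 were not tested. limma 3.58.1 in R 4.3.3 (lmFit, eBayes) compared DN-Clim with WT over the 23410, with Benjamini-Hochberg adjustment, after being tested on simulated data. The fit has no filter on dim probe sets, so all 6 members entered it.

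Members and lists were chosen with earlier results of these data known. The genes named were the members, the 10 nearest profiles, the neighbours and, per list, those with the largest or smallest changes in size. Predicted loci were skipped. Each listed gene was read from its brightest probe set over all arrays, and each of the 10 nearest profiles from the gene's nearest probe set. Some listed genes were not analysed here. Upstream bases are RefSeq's, 1 window for each of the 6 members, and pairs were aligned globally.

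Alternatives were offsets of 1 and 64, quantile normalization, median centring, a filter on dim probe sets, all probe sets, a trended robust prior, array weights, a replicate block and leaving out arrays. No gene had another probe set to try. Array weights were estimated gene by gene, since limma's default estimate did not converge.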

Additional observations from a re-analysis of the deposited data

How the results depend on the processing

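The median log2 difference of the 6 gamma crystallins, 2.30 with all arrays, ran from 1.17 to 4.37 when 1 array was left out, the highest without DN-Clim replicate 3. It was 4.04 with array weights and turned to -2.03 when DN-Clim replicate 3 was the only DN-Clim array in the fit, its spread taken to equal that of WT. There Cryga was at -2.43, Crygb at -2.24, Crygc at -1.81, Crygd at -2.88 and Crygs at -1.10 (limma adjusted p from 0.0567 to 0.147), and Crygn at 0.06. The number of the 6 past the threshold, 0 with all arrays, was 0 to 6 when 1 array was left out, with 6 only without DN-Clim replicate 3, and 6 with array weights, which gave DN-Clim replicate 3 the lowest weight. DN-Clim replicate 2 had the next lowest weight, 0.385, against 0.199 for replicate 3. In the other settings the number past the threshold was 0. The gap between DN-Clim replicates 1 and 2 and replicate 3, a median of 6.65 over the 6, ran from 6.28 to 6.88 over offsets, quantile normalization and median centring.

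The count of all probe sets past the threshold was 3. It was 1 with quantile normalization, 0 with all probe sets of the table, 5 with a trended robust prior, 2059 with array weights, 79 with DN-Clim replicate 3 alone and 0 to 483 when 1 array was left out, with 483 only without DN-Clim replicate 3. With the replicate block it was 9, and 0 of the 6 members passed. Deviations of same-numbered samples from their group means correlated at 0.02, -0.21 and -0.44. With 3 arrays in a group, such deviations are tied to each other and cannot decide whether the samples are paired. Of 96 comparisons of single members with an alternative, 79 kept direction and side, 12 became past the threshold and 5 turned. The median of the pigment markers turned to 0.0391 with median centring and 0.47 with array weights, and ran from -0.36 to 0.66 when 1 array was left out. That of the corneal endothelium markers ran from -0.0328 to 0.144 in the same way. With DN-Clim replicate 3 alone Crygf turned to -0.34 and the alpha and beta crystallins to -0.0613. The cause of these changes was not tested beyond the arrays named.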

Other observations

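Pou3f2 was the only gene other than a crystallin with a probe set over 3 log2 units above the WT mean on both DN-Clim replicates 1 and 2. It had 2 probe sets, and the other did not exceed 3 log2 units on both arrays and is not given here. The probe set over 3 stood at 3.18, 3.88 and -0.69 from the WT mean on DN-Clim replicates 1, 2 and 3, against -1.27, -0.69 and 1.96 on WT replicates 1, 2 and 3. Its WT arrays therefore spread more than those of any gamma crystallin, with WT replicate 3 the highest in WT, as for the members other than Crygn. Eif2s3y stood at 1.64, 3.94 and -1.12 on the DN-Clim arrays, against 0.55, -1.22 and 0.67 in WT, so that DN-Clim replicate 2 was well above replicate 1, as for Crygf. This Y-linked gene was below 130.0 units on all arrays but DN-Clim replicate 2, so the sizes of its values are uncertain. The sex of the pups is not given here. Ccdc175 stood at 1.99, 3.90 and 0.13 in DN-Clim, against -1.03, -0.59 and 1.62 in WT.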
